A study of Mus musculus with 16 samples.

Results

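Cells display peptides from their own proteins on MHC class I molecules, each made of a heavy chain bound to beta-2 microglobulin and loaded with peptide in the endoplasmic reticulum. MHC class II molecules, pairs of an alpha and a beta chain escorted by the invariant chain, display peptides from engulfed material and are made mainly by dendritic cells, B cells and macrophages, under the transcriptional coactivator CIITA. Hepatocytes, which supply most liver RNA, carry class I, while class II transcripts in liver come mostly from its immune cells.

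The 10 genes described here were the rows of the deposited expression table with the symbols H2-K1, H2-D1, B2m, Tap1, Tapbp, H2-Aa, H2-Ab1, H2-Eb1, Cd74 and Ciita. All 10 were found among 35275 gene IDs, and 9 of them passed the filter on low values that left 11298 genes for testing. RNA was sequenced from 16 mouse livers in 4 groups of 4. They were wild type (WT) on control diet, WT on ethanol diet, Zfp36l1 liver-specific knockout (LKO) on control diet and LKO on ethanol diet, and ZFP36L1 is an RNA-binding protein that recognises AU-rich elements and shortens mRNA life. Strain, sex, age, length of feeding and the line that drives the deletion are not given in the sources used here, nor is it stated that each library is a separate animal. P-values therefore measure the spread between these libraries. The values are FPKM, reads scaled to transcript length and library depth, so levels of different genes can be compared. In whole liver, fewer cells of a type and less RNA per cell cannot be told apart.

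The labels could be checked on Zfp36l1 itself, which was at 9.30 to 25.5 FPKM in the 8 WT libraries and 0.572 to 1.76 in the 8 LKO libraries. The hepatocyte gene Alb was at 23000 to 60924 FPKM in all 16. WT ethanol library 2 stood apart from the rest. It held 9884479 reads where the other 15 held 19069828 to 24768501, and 22.5% of its reads were mitochondrial where the others had 3.64% to 6.97%. Its Spearman correlation with any other library over all genes was 0.758 to 0.796, against 0.923 to 0.949 among the other 15. The main results that rest on WT ethanol livers are given with and without it. The libraries also fell into 2 sets that crossed the groups, libraries 1 and 2 of every group against libraries 3 and 4, along the first component of the within-group variation (40% of its variance over 15 libraries). The labels name no such division.

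The heavy chain genes and the class II genes belong to families known to be controlled through short motifs in their start regions, and 5 start regions are shown to give the letters of such motifs where they were found. Sequences are from RefSeq on GRCm38.p6, were found for 7 of the members, and reach from 250 bases before the start site to 50 after it. Capitals mark matches, on either strand, to CTGATTGG (the Y box), TGACG (the core of the X2 box), AAGTGAAA (an interferon response core) and GGGGATTCC (an NF-kB type site). The sequences of H2-K1 (chr17:34000317-34000498, minus strand), H2-D1 (chr17:35262883-35263063, plus strand), H2-Aa (chr17:34287852-34287937, minus strand), H2-Eb1 (chr17:34305765-34305827, plus strand) and B2m (chr2:122147569-122147736, plus strand) read as follows.
H2-K1: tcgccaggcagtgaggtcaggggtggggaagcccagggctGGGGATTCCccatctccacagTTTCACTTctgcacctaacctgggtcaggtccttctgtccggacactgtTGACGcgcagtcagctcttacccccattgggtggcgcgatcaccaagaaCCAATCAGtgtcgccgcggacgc
H2-D1: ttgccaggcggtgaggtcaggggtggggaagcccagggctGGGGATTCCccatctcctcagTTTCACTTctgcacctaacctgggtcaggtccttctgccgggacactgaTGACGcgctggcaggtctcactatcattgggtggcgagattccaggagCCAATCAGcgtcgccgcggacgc
H2-Aa: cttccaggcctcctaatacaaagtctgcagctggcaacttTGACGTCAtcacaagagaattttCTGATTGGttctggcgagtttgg
H2-Eb1: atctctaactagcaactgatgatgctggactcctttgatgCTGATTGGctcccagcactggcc
B2m: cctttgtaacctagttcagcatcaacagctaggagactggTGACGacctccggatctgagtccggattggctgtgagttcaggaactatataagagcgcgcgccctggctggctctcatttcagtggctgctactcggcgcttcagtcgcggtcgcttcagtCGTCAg

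The H2-K1 and H2-D1 stretches held all 4 motifs in the same order. The NF-kB type match and the interferon match began 21 bases apart in both genes, and the interferon match and the X2 core 49 bases apart. From the NF-kB type match to the end of the X2 core, 71 of 75 bases were identical between these 2 genes. Their Y box match was on the strand opposite to the printed one. It began 49 bases past the X2 core in H2-K1, after the start site, and 48 bases past it in H2-D1. H2-Aa had the X2 core on both strands, overlapping as TGACGTCA, and a Y box on the printed strand 23 bases farther on. H2-Eb1 matched only the Y box letters, and B2m only those of the X2 core. Among the other members with a start region, Tap1 matched the Y box and the X2 core, and Tapbp none of the 4. In Tap1 the Y box match began 222 bases before the start site, on the strand opposite to the gene, and the X2 core 86 bases before it. Only exact matches to all letters were marked, and altered or shorter forms of a motif were not looked for. Over all 32851 start regions of this length, 4.1% held the Y box, 20.8% the X2 core, 1.6% the interferon core and 0.25% the NF-kB type site. These matches are letters in a window, not measured binding sites.

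B2m and the heavy chain genes H2-K1 and H2-D1 had higher mean levels in every group than any class II member. Mean B2m levels were 1607 ± 211 FPKM in WT control, 1418 ± 852 in WT ethanol, 1767 ± 230 in LKO control and 1490 ± 80.6 in LKO ethanol livers (SD, n = 4 each). H2-K1 came next at 961 ± 82.8, 993 ± 261, 955 ± 92.3 and 876 ± 113 FPKM in the same order of groups, and H2-D1 after it at 323 ± 65.1, 497 ± 275, 360 ± 41.4 and 400 ± 71.6. The order B2m, H2-K1, H2-D1 held in 15 of the 16 libraries, the exception being WT ethanol library 2, where H2-K1 led. Cd74, the invariant chain gene, was the highest class II member, with group means between 22.7 and 52.3 FPKM. H2-Aa, H2-Ab1 and H2-Eb1 had group means between 7.50 and 31.0 FPKM. Tapbp had group means of 21.8 to 41.6, and Tap1 of 4.78 to 7.23. Ciita was the lowest, at 0.042 to 0.447 FPKM or 5 to 57 reads in 15 libraries and listed at 0 in WT ethanol library 2.

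In LKO livers the 4 tested class II members had lower mean levels on ethanol. Cd74 was at 45.3, 45.4, 61.6 and 34.8 FPKM in the 4 LKO control livers and 23.01, 29.1, 15.5 and 23.2 in the 4 LKO ethanol livers. Every ethanol value lay below every control value. The difference in log2(FPKM + 1) was -1.01 ± 0.33 (SE), a fold of 0.495, and it did not pass the limma test over all genes (adjusted p = 0.254).

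H2-Ab1, the beta chain of the class II molecule I-A, was at 16.1, 19.4, 28.7 and 12.7 FPKM in LKO control and 6.51, 10.3, 6.66 and 9.97 in LKO ethanol livers. H2-Eb1, the beta chain of I-E, was at 14.9, 13.5, 23.9 and 10.4 against 5.56, 10.3, 5.94 and 8.25. Neither gene's groups overlapped, although for H2-Eb1 the highest ethanol and the lowest control library nearly met. The differences were -1.08 ± 0.47 for H2-Ab1 (limma adjusted p = 0.488) and -0.95 ± 0.46 for H2-Eb1 (adjusted p = 0.564). H2-Aa, the alpha chain of I-A, was at 43.6, 41.0, 26.1 and 13.3 FPKM in LKO control and 19.0, 29.6, 6.77 and 9.52 in LKO ethanol livers. Its groups overlapped, and its difference of -0.96 ± 0.56 had the same direction (limma adjusted p = 0.678). Ciita was not tested. Its reads numbered 18 to 31 in LKO control and 5 to 27 in LKO ethanol livers.

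**Figure D1:**
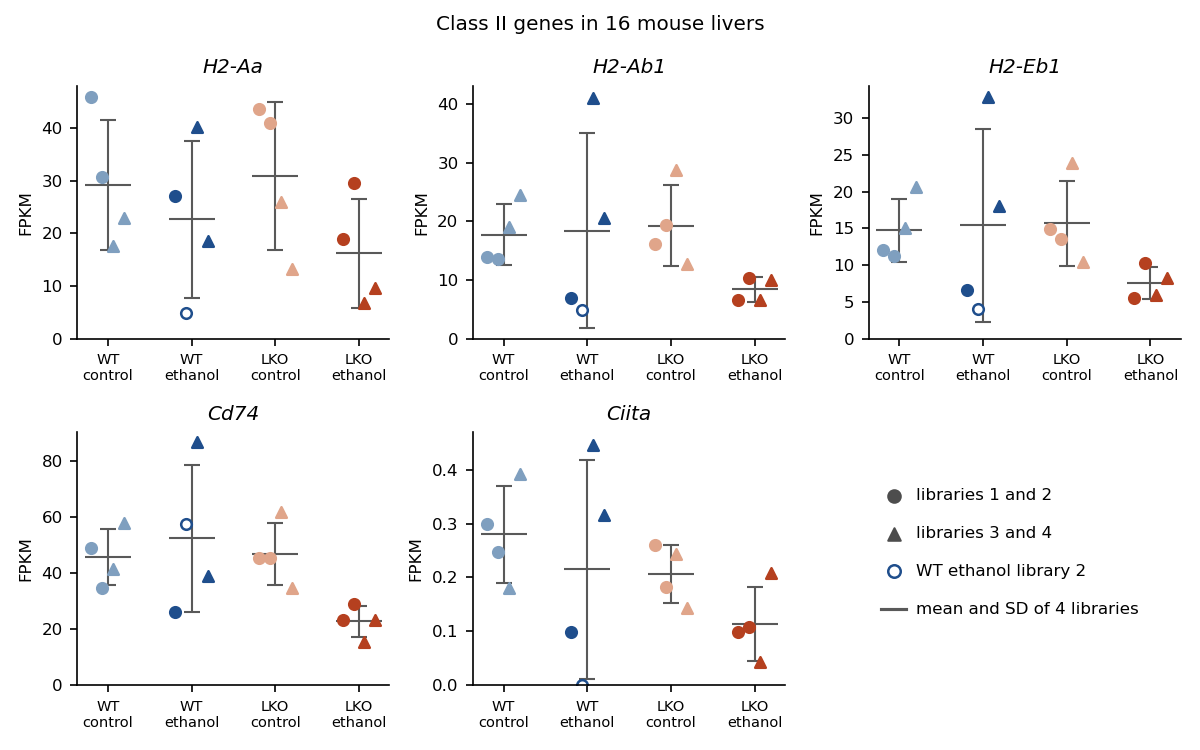
FPKM of the 5 class II members (vertical axes) in the 4 groups (horizontal axes); each point is 1 library, bars are the mean and SD of 4 libraries, circles are libraries 1 and 2, triangles libraries 3 and 4, and the open circle is WT ethanol library 2. In LKO ethanol livers Cd74 lies between 15.5 and 29.1, below all LKO control livers, while the WT ethanol livers spread from 26.02 to 86.5.

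Thus 3 of the 9 tested members, H2-Ab1, H2-Eb1 and Cd74, had all LKO ethanol livers below all LKO control livers, where 4.14% of all tested genes did. By the limma test 0 of 9 members were called at an adjusted p under 0.05, where 0.425% of all genes were. At an unadjusted p under 0.05 there were 2 members, H2-Ab1 and Cd74, against 9.19% of all genes, and limma with voom on the recovered reads also called 0. The difference was negative within both sets of libraries, and whether the sets differ was not tested. For Cd74 it was -0.79 in libraries 1 and 2 and -1.24 in libraries 3 and 4, and for H2-Ab1 -1.02 and -1.14. With a term for the set and without WT ethanol library 2, Cd74 fell by 1.01 on the log2 scale in limma (adjusted p = 0.0458), 1 of 9 members where 10.7% of all genes were called. The sets were read from the variation of these same values, so the term takes up part of the spread used in the test. Without that library and without the term, 3.62% of all genes were called.

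The class I members had estimates nearer to 0 for ethanol in LKO livers, and whether the 2 classes differ was not tested. H2-K1 differed by -0.13 ± 0.24, H2-D1 by 0.14 ± 0.37, B2m by -0.24 ± 0.52, Tap1 by -0.38 ± 0.40 and Tapbp by -0.29 ± 0.30 in log2(FPKM + 1). All 5 intervals included 0, as did those of H2-Aa and H2-Eb1. The median over the 9 tested members was -0.38, and over all tested genes 0.06.

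In WT livers without ethanol library 2, the ethanol difference was positive for all 5 class I members, and H2-D1 alone passed the test. Leaving out that library also moved the median over all tested genes, from -0.02 to 0.17. H2-D1, a classical class I heavy chain gene, was at 293, 248, 393 and 358 FPKM in WT control livers and 389, 172, 628 and 799.5 in WT ethanol livers, the 172 being library 2. Libraries 3 and 4 were above all controls, and library 1 fell just under the highest control. Over all 16 libraries the difference was 0.43 ± 0.37 and did not pass (limma adjusted p = 0.559). Without library 2, H2-D1 rose by 0.87 ± 0.24, a fold of 1.82 (limma adjusted p = 0.0366), and it was the 1 member of 9 called where 9.48% of all genes were, a share near that background. Its difference was 0.92 in libraries 3 and 4 and 0.53 in library 1 against controls 1 and 2.

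H2-K1, the other classical heavy chain gene, was at 1044, 865, 920 and 1014 FPKM in WT control livers and 1101, 608, 1079 and 1186 in WT ethanol livers. Leaving out library 2, all 3 ethanol livers exceeded all 4 controls, as they did for 15.6% of all tested genes, and by little: the difference was 0.23 ± 0.16 without it (limma adjusted p = 0.409) and 0.01 ± 0.24 with it. The ratio of H2-K1 to H2-D1 was 2.34 to 3.57 in WT control livers and 1.48, 1.72 and 2.83 in WT ethanol livers without library 2, which stood at 3.54.

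B2m, the light chain shared by all class I molecules, was at 1359, 1507, 1812 and 1749 FPKM in WT control livers and 1519, 195, 1831 and 2128 in WT ethanol livers. The sign of its difference rested on library 2, being -0.62 ± 0.52 with it and 0.18 ± 0.18 without it (limma adjusted p = 0.546 and 0.563).

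Of the 2 loading genes, Tapbp encodes tapasin, which holds the empty class I molecule at the peptide transporter, and Tap1 encodes 1 subunit of that transporter. Tapbp was at 19.4, 19.0, 27.9 and 34.8 FPKM in WT control and 22.7, 43.7, 45.9 and 54.1 in WT ethanol livers. Of the 4 ethanol livers 3 were above all controls, and the difference was 0.68 ± 0.30 (limma adjusted p = 0.219). Without WT ethanol library 1, the low one, it was 0.94 and passed (adjusted p = 0.0482), as did 8.32% of all genes. Without library 2 it was 0.63 ± 0.29 (adjusted p = 0.186), and in libraries 1 and 2 it went from 0.69 with that library to 0.23 without it. Tap1 was at 4.29, 3.56, 3.95 and 8.94 against 3.98, 2.07, 10.6 and 12.3 FPKM. Its groups overlapped, with libraries 3 and 4 high on ethanol and libraries 1 and 2 not. Its difference was 0.25 ± 0.40 over all libraries and 0.64 ± 0.35 without library 2 (limma adjusted p = 0.773 and 0.259).

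**Figure D2:**
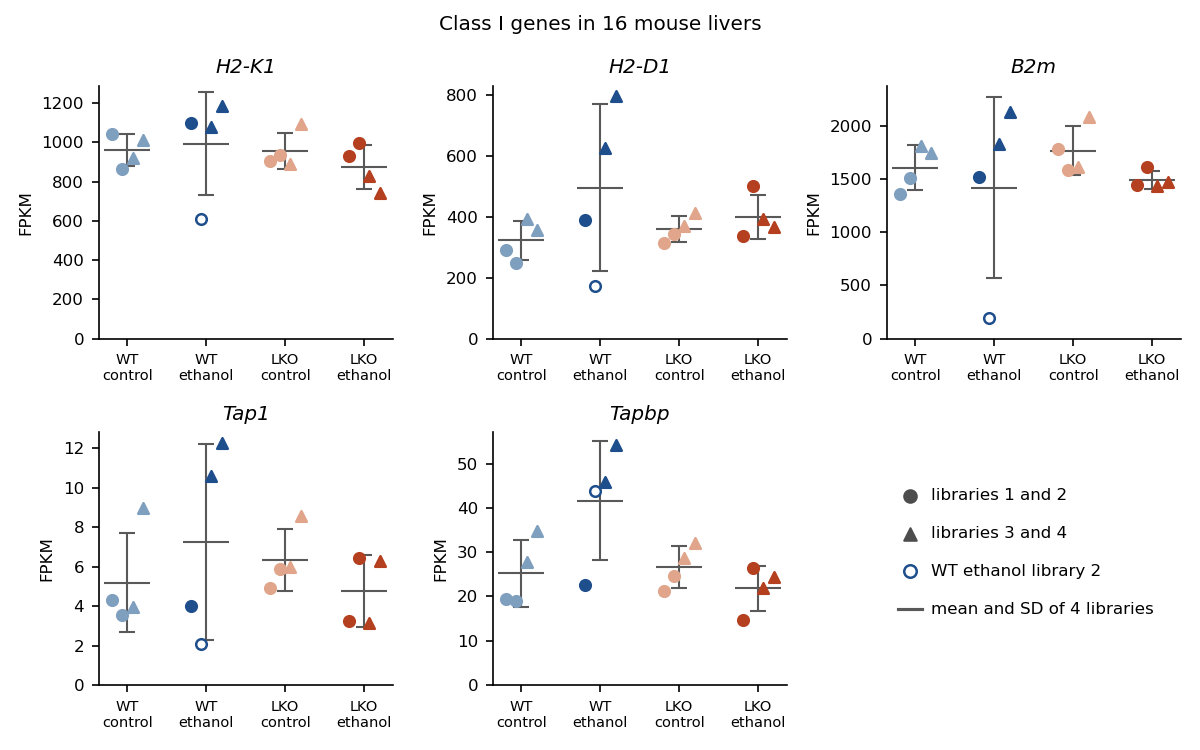
FPKM of the 5 class I members (vertical axes) in the 4 groups (horizontal axes), drawn as in the class II plot: points are libraries, bars the mean and SD of 4. WT ethanol library 2 (open circle) is the lowest of all 16 for B2m at 195, H2-K1 at 608 and H2-D1 at 172, and WT ethanol libraries 3 and 4 are the highest of all for H2-D1, at 628 and 799.5.

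Cd74, H2-Ab1 and H2-Eb1 had their largest SD among the 4 groups in WT ethanol livers, with and without library 2. For H2-Aa this held only with library 2, at 14.9 FPKM, against 10.9 without it and 14.1 in LKO control livers. Cd74 was at 48.9, 34.5, 41.3 and 57.6 FPKM in WT control and 26.02, 57.6, 86.5 and 39.0 in WT ethanol livers. H2-Ab1 was at 14.0, 13.5, 19.0 and 24.5 against 7.002, 4.93, 41.1 and 20.6, so that the ethanol livers held both the lowest and the highest values of the group pair. H2-Eb1 was at 12.1, 11.2, 15.04 and 20.7 against 6.64, 4.01, 32.8 and 18.1, and H2-Aa at 46, 30.8, 17.6 and 22.9 against 27.1, 4.82, 40.2 and 18.5. The mean differences, 0.08 for Cd74, -0.34 for H2-Ab1, -0.29 for H2-Eb1 and -0.58 for H2-Aa, were within this spread. Without library 2 they were -0.007, 0.086, 0.149 and -0.013, so that the sign changed for the first 3. Over all 16 libraries 0 of 9 members were called by limma for ethanol in WT livers, where 4.18% of all genes were. One member, Tapbp, had an unadjusted p under 0.05, against 19.7% of all genes, and voom called 0.

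**Figure D3:**
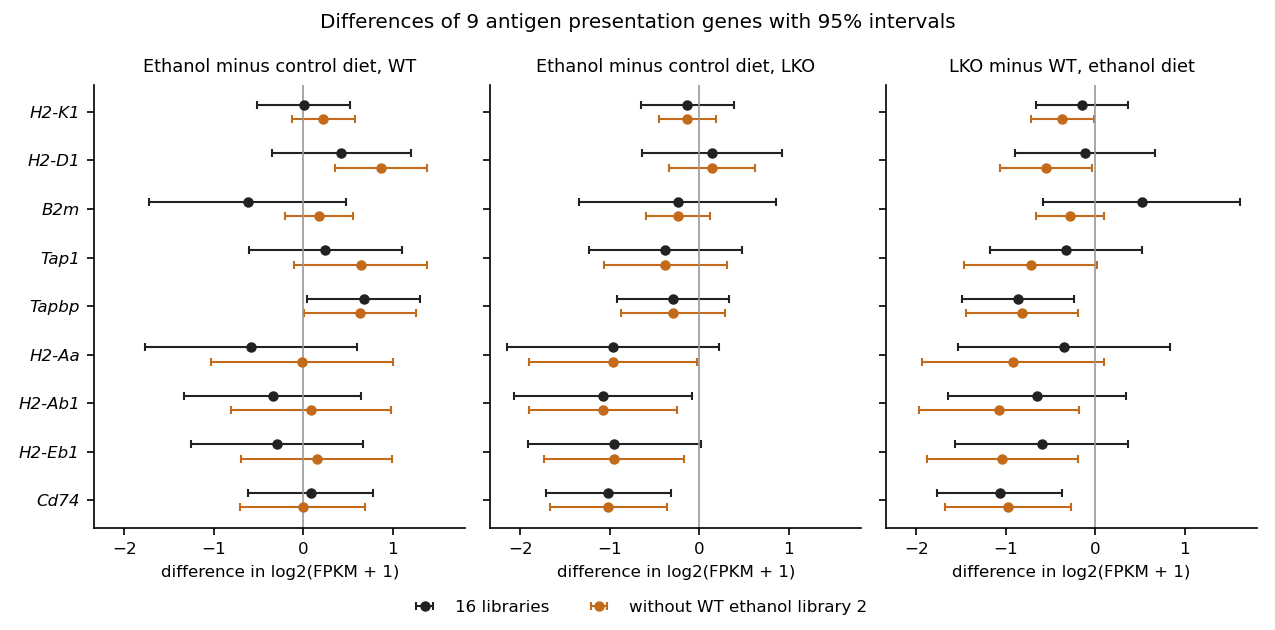
Difference in log2(FPKM + 1) (horizontal axes) of the 9 tested members (vertical axis) for ethanol in WT livers, ethanol in LKO livers and LKO against WT on ethanol, with 95% confidence intervals from the fits with 16 libraries (black) and without WT ethanol library 2 (orange). The 4 class II genes lie near -1 for ethanol in LKO livers in both fits, and B2m, H2-Ab1, H2-Eb1 and Cd74 change sign in WT livers.

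On the ethanol diet, the fitted means of LKO livers were below those of WT livers for all 4 tested class II members, and the libraries of the 2 groups overlapped for each. Cd74 differed by -1.07 ± 0.33, a fold of 0.478 (limma adjusted p = 0.253), H2-Ab1 by -0.65 ± 0.47, H2-Eb1 by -0.59 ± 0.46 and H2-Aa by -0.35 ± 0.56. Tapbp was also lower in LKO, by -0.86 ± 0.30 (adjusted p = 0.296). Limma called 0 of 9 members, where 0.0797% of all genes were called. At an unadjusted p under 0.05 the 2 members were Cd74 and Tapbp, against 11.9% of all genes, and voom called 0. Without WT ethanol library 1, both passed, Cd74 at -1.35 (adjusted p = 0.0331) and Tapbp at -1.12 (adjusted p = 0.0399), 2 of 9 members where 3.43% of all genes were called.

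Limma again called 0 of 9 members in this comparison without WT ethanol library 2, where 0.221% of all genes were called. The values were -0.97 ± 0.33 for Cd74 (adjusted p = 0.189), -1.07 ± 0.42 for H2-Ab1 (adjusted p = 0.233), -1.04 ± 0.40 for H2-Eb1 (adjusted p = 0.224), -0.92 ± 0.48 for H2-Aa (adjusted p = 0.327) and -0.82 ± 0.29 for Tapbp (adjusted p = 0.21). The median of the 4 class II members moved from -0.62 to -1.005 (all tested genes: -0.03 to -0.23). All 5 class I members were also negative without that library, and their median moved from -0.145 to -0.55. For H2-K1 every LKO ethanol liver was then below every WT ethanol liver, as for 5.89% of all tested genes. At an unadjusted p under 0.05 there were 6 of 9 members, against 17.1% of all genes, and 7 of 9 against 26.6% with the set term as well.

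The values of this genotype comparison differed between the 2 sets of libraries. In libraries 3 and 4 they were -1.56 for Cd74, -1.72 for H2-Ab1, -1.66 for H2-Eb1 and -1.65 for H2-Aa. In LKO libraries 1 and 2 against WT ethanol library 1 alone, they were -0.01, 0.21, 0.17 and -0.18. With library 2 kept, the values for libraries 1 and 2 were -0.57, 0.42, 0.47 and 0.95. The genotype values on ethanol were thus below -1.5 in 1 set and near 0 or above it in the other for the 3 class II chains, whereas the ethanol values in LKO livers were negative in both sets. Whether the sets differ was not tested.

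On the control diet no member was shown to differ between the genotypes, within wide limits. The 9 differences ran from -0.01 for H2-K1 to 0.30 for Tap1, with 95% intervals of -0.53 to 0.51 and -0.55 to 1.15. For Cd74 the difference was 0.03, with an interval of -0.67 to 0.73. Limma and voom called 0 of 9 members, 0 had an unadjusted p under 0.05 against 3.45% of all genes, and 0.00885% of all genes were called.

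The interaction, which tests whether ethanol acted differently in the 2 genotypes (LKO change minus WT change), called 0 of 9 members and 0.0% of all genes in limma, and 0 in voom. It was -1.10 ± 0.47 for Cd74 and -0.96 ± 0.42 for Tapbp, the 2 members with an unadjusted p under 0.05 (adjusted p = 0.927 for both), against 3.2% of all genes. They were -1.01 ± 0.45 and -0.92 ± 0.40 without WT ethanol library 2 (adjusted p = 0.968 for both), 0 of 9 members were called, and 4, H2-D1, Tap1, Tapbp and Cd74, had an unadjusted p under 0.05 against 4.42% of all genes. A different ethanol response in the 2 genotypes was therefore not shown for any member.

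Averaged over genotypes, the ethanol differences of the class II members were -0.71 ± 0.33 for H2-Ab1, -0.77 ± 0.40 for H2-Aa, -0.62 ± 0.32 for H2-Eb1 and -0.47 ± 0.23 for Cd74. None passed (limma adjusted p = 0.225 to 0.287), and 0 of 9 members were called where 7.78% of all genes were. In the same order they were -0.495, -0.49, -0.40 and -0.51 without WT ethanol library 2 (adjusted p = 0.123 to 0.327). One member, H2-Ab1, had an unadjusted p under 0.05 over 16 libraries, against 21.6% of all genes, and voom called 0. Leaving out single libraries moved calls here. Without WT ethanol library 2, H2-D1 was called higher at 0.50 (adjusted p = 0.0424), 1 of 9 where 20.5% of all genes were. Without WT ethanol library 3, H2-Ab1 was called lower at -0.97 (adjusted p = 0.0386), 1 of 9 where 7.57% of all genes were. Averaged over diets, LKO against WT gave 0 of 9 in limma and in voom, with 0.142% of all genes called, and 1 member, Cd74, at an unadjusted p under 0.05 (-0.52 ± 0.23) against 10.4% of all genes. That comparison gave 0 of 9 without WT ethanol library 2, and 0 members had an unadjusted p under 0.05 against 22.7% of all genes.

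The class II genes did not keep fixed proportions to one another. The ratio of H2-Eb1 to H2-Ab1, 2 neighbouring beta chain genes, stayed between 0.696 and 0.992 in all 16 livers. The ratio of H2-Aa to H2-Ab1, the 2 chains of one molecule, took 2 separate ranges. It was 2.11 to 3.86 in 7 of the 8 libraries numbered 1 and 2, and 0.902 to 1.05 in the 8 libraries numbered 3 and 4. WT ethanol library 2, at 0.979, was the exception. Each group held both ranges. Apart from that library, the 2 ranges matched the 2 sets of libraries, which were themselves read from the expression values. Whether the ratio differs with diet or genotype was not tested. What sets the libraries apart was not tested.

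**Figure D4:**
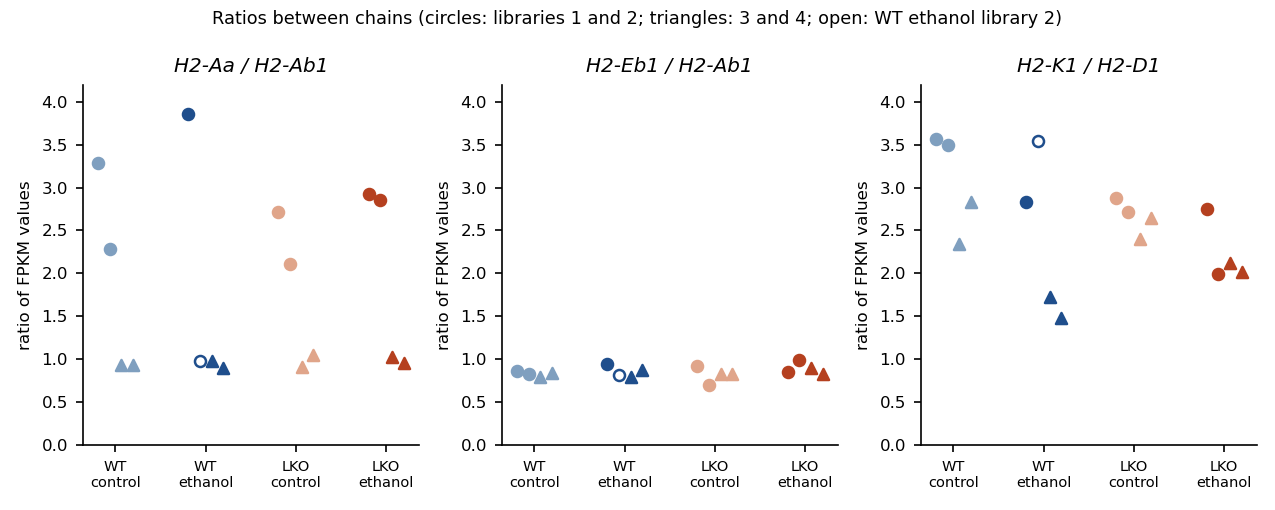
Ratios of FPKM values (vertical axes) of H2-Aa to H2-Ab1, H2-Eb1 to H2-Ab1 and H2-K1 to H2-D1 in the 4 groups (horizontal axes), 1 point per library; circles are libraries 1 and 2, triangles libraries 3 and 4, the open circle WT ethanol library 2. The first ratio splits into 2.11 to 3.86 and 0.902 to 1.05, while the second stays within 0.696 to 0.992.

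Across the libraries, given as descriptions over samples that share diets and sets, the tightest pair was H2-Ab1 and H2-Eb1 (Pearson r = 0.991 over 16 libraries, 0.99 over 15 without WT ethanol library 2). Cd74 followed H2-Ab1 at 0.705, and at 0.937 without that library. Of the class I genes, Tap1 and Tapbp were at 0.566 and 0.904. H2-K1 and B2m were at 0.765 and 0.545, and H2-D1 and H2-Aa at 0.238 and -0.147. Among genes that are no members, the 5 closest to H2-K1 in log2(FPKM + 1) over 16 libraries were Mknk2 (r = 0.914), Sh3bgrl2 (0.891), Serpina7 (0.881), Lpin2 (0.879) and Hmgb3 (0.876), and without WT ethanol library 2 these were 0.856, 0.781, 0.759, 0.754 and 0.745. The 5 closest to Cd74 were Lig1 (0.907), Zpr1 (0.865), H2-DMa (0.843), Egln2 (0.831) and Cenpw (0.826), at 0.922, 0.89, 0.837, 0.824 and 0.855 without it. H2-DMa among these 10 is itself a gene of antigen presentation, a chain of the editor that exchanges peptides on class II. Ranked over the 15 libraries, only Mknk2 stayed among the 5 closest to H2-K1, and only Lig1 and Zpr1 among the 5 closest to Cd74, so H2-DMa was no longer there.

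H2-DMa was at 2.06, 1.56, 2.06 and 2.56 FPKM in WT control, 0.859, 2.86, 4.82 and 4.23 in WT ethanol, 2.43, 2.38, 2.83 and 1.10 in LKO control and 0.45, 1.89, 0.802 and 1.09 in LKO ethanol livers. Its difference for LKO against WT on ethanol was -0.95 ± 0.31 (limma adjusted p = 0.277), near that of Cd74. H2-DMa was ranked by its likeness to Cd74 over these same libraries, so the 2 differences are not independent. The list of other class II genes held 14 genes under 16 symbols, H2-Ea and Marchf1 being other names for H2-Ea-ps and March1. All 14 were in the table and 9 were tested, and 0 were called in either direction for any of the 7 contrasts.

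One non-classical class I gene, chosen for its small p, is described next. H2-Q10, which encodes a class I heavy chain that hepatocytes secrete, was at 419, 467, 473 and 493 FPKM in WT control and 454, 425, 451 and 352 in WT ethanol livers. In LKO livers it was at 746, 677, 592 and 789 on control diet and 596, 655, 521 and 568 on ethanol. All 8 LKO values were above all 8 WT values, as for 0.062% of all tested genes. Averaged over diets the difference was 0.53 ± 0.15, a fold of 1.45, which did not pass over all 16 libraries (limma adjusted p = 0.208). Without WT ethanol library 2 it was 0.54 and passed (adjusted p = 0.0426), as did 1.07% of all genes, and it lay between 0.45 and 0.68 within each set of libraries on each diet. The reads of class I heavy chain genes can be shared among near-identical copies, and how the counting treated those reads is not given in the sources used here.

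The 12 other class I heavy chain genes listed were all in the table, 10 were tested, and 0 were called in any contrast. After H2-Q10 the smallest p-values were those of H2-K2, at -0.78 ± 0.34 for ethanol averaged over genotypes (limma adjusted p = 0.187), and H2-T24. Of 12 genes of class I peptide loading and supply, all tested, 0 were called, and 11 of 12 were negative for ethanol in LKO livers with a median of -0.19. Psmb9, a subunit of the immunoproteasome, was the first of them at -0.45 ± 0.20 for ethanol averaged over genotypes (adjusted p = 0.202), followed by Psmb10 and Erap1. The class I-like genes Cd1d1, Fcgrt and Hfe with Mr1 gave 0 calls in 4. Of 13 interferon gamma genes, 11 were tested and 0 called, with a median of 0.05 for ethanol in LKO livers. Ifngr2, a receptor chain, came first at 0.57 ± 0.27 for ethanol averaged over genotypes (adjusted p = 0.224), then Cxcl9 and Jak2.

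Markers of the cells that make class II were set beside the members. Of 6 B cell markers only Ighm, the IgM heavy chain, was high enough to be tested. It was at 2.62, 4.42, 2.34 and 2.93 FPKM in WT control and 1.70, 0.426, 1.504 and 1.34 in WT ethanol livers, and at 4.14, 4.41, 3.004 and 2.64 in LKO control and 1.48, 0.866, 0.657 and 1.08 in LKO ethanol livers. The ethanol livers were below the control livers in both genotypes, as for 4.45% of all tested genes in WT and 4.14% in LKO, and Ighm fell by 1.02 on the log2 scale averaged over genotypes (limma adjusted p = 0.00142). The summed B cell markers were at 3.47 to 5.71 FPKM in WT control, 1.81 to 2.51 in WT ethanol, 3.77 to 7.59 in LKO control and 0.985 to 2.48 in LKO ethanol livers.

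Of the 11 macrophage and Kupffer cell markers, 10 were negative for ethanol in LKO livers, with a median of -0.59, and 7 were positive for ethanol in WT livers, with a median of 0.27 (10 and 0.44 without WT ethanol library 2). For LKO against WT on ethanol, where the class II members had lower fitted means, 10 of the 11 were negative as well, with a median of -0.50 (11 and -0.83 without that library). For the interaction all 11 were negative, with a median of -0.79 (-1.12 without that library). Over all tested genes the medians were 0.06 for ethanol in LKO and -0.02 for ethanol in WT livers (0.17 for WT without that library). They were -0.03 for LKO against WT on ethanol and 0.09 for the interaction (-0.23 and -0.12 without that library). The summed level of the 11 markers was 210 to 550 FPKM in WT control, 357 to 709 in WT ethanol, 192 to 681 in LKO control and 134 to 718 in LKO ethanol livers, ranges that overlap. Marco, a scavenger receptor of Kupffer cells, rose in WT ethanol livers by 1.71 ± 0.44 (limma adjusted p = 0.0379), the 1 call of this list, where 4.18% of all tested genes were called. That call was lost with a pseudocount of 0.1, no filter, voom on reads or only the 2 groups compared. It was also lost without any 1 WT control library, WT ethanol library 3 or 4, LKO control library 1 or 3 or LKO ethanol library 3 (over all these, adjusted p = 0.0503 to 0.117, difference 1.44 to 1.92). Timd4 and Adgre1 were next after Marco by p in the averaged contrasts. The 11 dendritic cell markers, led by Clec9a, Zbtb46 and Batf3, summed to 6.03 to 7.84, 5.66 to 11.0, 4.21 to 10.3 and 3.37 to 9.30 FPKM in the same order of groups, with 4 tested and 0 called. The 10 T and NK cell markers summed to 4.125 to 8.74, 4.41 to 12.9, 2.58 to 8.66 and 1.52 to 6.32 FPKM in that order. Without WT ethanol library 2 the WT ethanol sums were 4.41 to 8.225. Ptprc was not called. Trac and Nkg7 reached the filter on low values only through control libraries, and Cd3g through 4 control libraries and 1 ethanol library, so these 3 are given with no test. Trac was at 0.199 to 1.27 FPKM in WT control, 0 to 0.622 in WT ethanol, 0.101 to 1.295 in LKO control and 0.108 to 0.88 in LKO ethanol livers. The part of these cell markers in the class II levels was not tested.

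**Figure D5:**
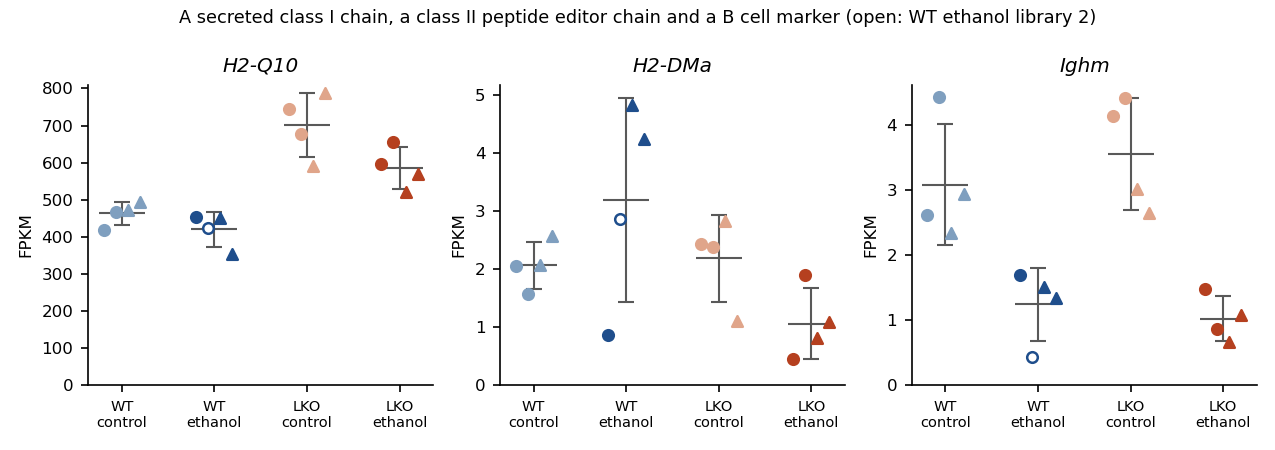
FPKM (vertical axes) of H2-Q10, H2-DMa and Ighm in the 4 groups (horizontal axes); points are libraries (circles 1 and 2, triangles 3 and 4, open circle WT ethanol library 2) and bars the mean and SD of 4. H2-Q10 is at 521 to 789 in the 8 LKO livers and 352 to 493 in the 8 WT livers, and Ighm is lower on ethanol in both genotypes.

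Other cell types gave few calls. Lyve1, a marker of sinusoidal endothelium, rose by 1.75 ± 0.44 on ethanol averaged over genotypes (limma adjusted p = 0.0208), and by 1.53 without LKO ethanol library 2 (adjusted p = 0.052, no longer passing). It did not pass with no filter on low values either (adjusted p = 0.0689). Clec4g and Pecam1 of the same list of 5 were not called. Lyve1 went against most of that list, in which 3 of 5 were negative, with a median of -0.33. Clec4g, an endothelial lectin, was at 49.9, 41.5, 22.3 and 19.4 FPKM in WT control and 17.4, 2.88, 17.5 and 12.5 in WT ethanol livers. All WT ethanol values were below all WT control values, as for 4.45% of all tested genes. In LKO livers Clec4g was at 54.3, 56.55, 16.4 and 15.7 on control and 23.9, 27.1, 10.35 and 17.9 on ethanol diet, with overlap. Its difference averaged over genotypes was -1.06 ± 0.38 (limma adjusted p = 0.0985). Sox9, a cholangiocyte gene, reached the filter on low values only through ethanol libraries, so it is given with no test, at 0.375 to 0.834 FPKM in WT control, 0.646 to 3.01 in WT ethanol, 0.202 to 0.776 in LKO control and 0.677 to 2.26 in LKO ethanol livers. The other 3 cholangiocyte markers were too low to test. Lyz2, the 1 monocyte marker of 4 that could be tested, and the 5 hepatocyte markers found, led by Ttr, Apoa1 and Fgb, gave 0 calls. Without WT ethanol library 2, further list genes passed in limma for ethanol averaged over genotypes, where 20.5% of all genes did. Psmb10, an immunoproteasome subunit, fell by 0.56 on the log2 scale (adjusted p = 0.019), Fcgrt, the neonatal Fc receptor, by 0.53 (adjusted p = 0.0206), and the plasma transport protein gene Ttr by 0.54 (adjusted p = 0.0186). Ifngr2 rose by 0.81 (adjusted p = 0.00502), Pecam1 by 0.64 (adjusted p = 0.0424) and Rfxank, a subunit of the factor that binds the X box, by 0.30 (adjusted p = 0.0445). In WT livers alone, where 9.48% of all genes passed, besides Ighm and Marco, Cd68, a macrophage gene, rose by 1.47 (adjusted p = 0.0375), Ifngr2 by 1.08 (adjusted p = 0.0178) and Lyve1 by 2.58 (adjusted p = 0.00244). In LKO livers alone, where 3.62% did, besides Ighm, Lyve1 rose by 1.75 (adjusted p = 0.0177) and Psmb10 fell by 0.83 (adjusted p = 0.0383).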

How the data were processed

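The deposited table held FPKM values of 35275 mouse gene IDs in 16 libraries. The submitters' processing notes name fastp, STAR 2.6.1, HTSeq, DESeq2 and the build mm10, without roles, and the authors' FPKM came without counts. Symbols and positions were taken from GENCODE M21, and 34490 IDs had a symbol. Whole reads were recovered from the steps of the FPKM values for 20520 of 20520 genes above 0 in at least 4 libraries (tolerance 0.02 reads), which gave the depths, 9884479 to 24768501 reads a library. Genes with FPKM of at least 1 in at least 4 libraries were kept. Differences in log2(FPKM + 1) were tested with limma 3.58.1 in R 4.3.3 (group means over 4 groups, trended empirical Bayes, Benjamini-Hochberg over 11298 genes, threshold 0.05). This scale understates changes of low genes. The fit was tested on simulated data.

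The 10 members, the gene lists and the tests were chosen with earlier results of these data known. Named genes were the members, up to 3 genes per list with the smallest p in an averaged contrast, and the 5 genes most like H2-K1 and like Cd74. Alternatives were another pseudocount, no filter, other scalings, library weights, voom on reads, a term for the 2 sets of libraries and leaving out libraries. Sequences come from RefSeq start regions. Members without a start region shown are named only.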

Additional observations from a re-analysis of the deposited data

Results flagged for a closer look

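Tap1 in WT control library 4 was at 8.94 FPKM, above the other 3 libraries of that group, which lay between 3.56 and 4.29. The gap to the next library was 0.864 of the group's whole range, past Dixon's 95% critical value for 4 libraries. This was 1 of 44 groups examined, the 10 members and H2-Q10 in 4 groups each, and chance flags about 1 in 20 such groups.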

How the results depend on the processing

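The number of the 9 tested members called by limma was 0 in all 7 contrasts with 16 libraries. It stayed at 0 with a pseudocount of 0.1, no filter on low values, quantile normalization, median-of-ratios scaling, voom on reads, the set term alone, and, in the 4 contrasts of 2 groups, only the 2 groups compared. Weighting libraries by their spread gave WT ethanol libraries 1 to 4 weights of 0.278, 0.0418, 4.998 and 1.06, so that library 3, the highest for class II, dominated that group. It called 6 members for ethanol in WT (38.4% of all genes), 3 for ethanol in LKO (7.69%), 7 for LKO on ethanol (30.7%), 5 for the interaction (4.48%), 1 for ethanol averaged (36.7%) and 4 for LKO averaged (34.1%). With the set term and without WT ethanol library 2 it was 1 each for ethanol in WT (19.7% of all genes), ethanol in LKO (10.7%) and ethanol averaged (32.6%). Leaving out each library in turn gave 0 to 1 for ethanol in WT, 0 to 2 for LKO on ethanol and 0 to 1 for ethanol averaged, and 0 elsewhere.

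Of the 40 gene differences followed, signs changed only where the 95% interval over 16 libraries included 0. For ethanol in WT, H2-K1 became -0.12 with quantile normalization. With library weights B2m became 0.24, H2-Aa 0.21, H2-Ab1 0.99 and H2-Eb1 0.95, and B2m for LKO on ethanol -0.32. With the set term and without WT ethanol library 2, B2m became 0.15, H2-Aa 0.14, H2-Eb1 0.069 and Cd74 -0.034 for ethanol in WT, and B2m -0.25 for LKO on ethanol. Leaving out 1 library, ethanol in WT ranged from -0.10 to 0.23 for H2-K1, -0.97 to 0.18 for B2m, -0.063 to 0.642 for Tap1, -0.857 to 0.086 for H2-Ab1, -0.77 to 0.15 for H2-Eb1 and -0.20 to 0.37 for Cd74. LKO on ethanol ranged from -0.55 to 0.19 for H2-D1, -0.28 to 0.87 for B2m and -0.918 to 0.023 for H2-Aa. The cause was not tested. The ethanol difference in LKO kept its sign for all 9 members, and for Cd74 ranged from -1.14 to -0.85. Depth limits Ciita, with at most 57 reads. No paired analysis was run. The labels give the groups no shared replicate numbers, and do not say whether consecutive numbers in several control and ethanol titles mark paired animals.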
